A study of Mus musculus with 21 samples.

Results

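The muscle miRNAs miR-1a-3p, miR-133a-3p, miR-133b-3p, miR-206-3p, miR-208b-3p and miR-499-5p were followed through the development of the cochlea and of the superior olivary complex (SOC), the first brainstem centre that compares input from both ears. They were chosen by name, and 5 of the 6 names matched one of the 1647 counted miRNAs, while miR-133b-3p was not analysed here. Small RNA of untreated wild-type mice was sequenced in 21 libraries, with 2 cochlea libraries at embryonic day 16 (E16), 4 on the day of birth (P0) and 4 at postnatal day 16 (P16), and with 4, 4 and 3 SOC libraries at the same ages. The cochlea libraries held the sensory epithelium, dissected from inner ears of several C57BL/6JOlaHsd mice, and were made with the SMARTer smRNA-Seq Kit. The SOC libraries held pooled tissue of several C57Bl6/J mice. It was cut from frozen heads at E16 and from frozen brains at P0 and P16, so this step changed with age. At P16 fewer mice went into a SOC pool than at the earlier ages, and only the P16 mice were killed with carbon dioxide. The SOC libraries were made with the Illumina TruSeq Small RNA kit. Organ, strain, dissection, RNA isolation and library kit therefore changed together and cannot be told apart, so levels were compared over time within an organ only.

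miRNAs are short RNAs that bring a silencing complex to mRNAs, mostly through pairing of the bases near their 5′ end, the seed. The miRNAs described here are known as myomiRs, because they are abundant in striated muscle and rare in most other tissues. miR-1 and miR-133 are made in heart and skeletal muscle, miR-206 is typical of skeletal muscle, and miR-208b and miR-499 are processed from introns of myosin heavy chain genes. miR-1 and miR-206 are close relatives that share their seed and are known to promote muscle differentiation, and miR-206 is also known to support the regrowth of nerve endings at the neuromuscular junction.

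The mature sequences below, from RefSeq on GRCm38.p6, are shown because they tell which of these miRNAs could be confused with each other in counting. The seed, bases 2 to 8, is in capitals.
miR-206-3p: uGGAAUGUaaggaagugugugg
miR-208b-3p: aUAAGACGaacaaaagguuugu
miR-208a-3p: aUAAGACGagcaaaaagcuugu
miR-499-5p: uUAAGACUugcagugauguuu
RefSeq sequences were matched for 4 of the 6 names, not for miR-1a-3p and miR-133a-3p. The matched names were miR-133b-3p, which is not printed, miR-206-3p, miR-208b-3p and miR-499-5p. miR-208a-3p is printed as a relative and is not among the 6 names. Confusion in counting between miR-1a-3p and its relative miR-206-3p was therefore not examined, nor was that between miR-133a-3p and miR-133b-3p. The miR-206-3p sequence lies on chromosome 1, chr1:20679055-20679076 on the plus strand, in an exon of the long noncoding RNA Gm28653, and 3686 bases separate its hairpin from that of miR-133b in the same noncoding gene. The miR-208b-3p sequence lies at chr14:54975710-54975731 on the minus strand in an intron of Myh7, which encodes the slow myosin heavy chain. The miR-499-5p sequence lies at chr2:155622893-155622913 on the plus strand in an intron of Myh7b. miR-208b-3p and miR-499-5p share bases 2 to 7 and differ at base 8, the last base of the seed. miR-208a-3p, its relative from the neighbouring gene Myh6, has the seed of miR-208b-3p and differs from it by 3 substitutions, A10G, G16A and U18C, counted from the 5′ end with the base of miR-208b-3p first. The seed of miR-206-3p was found in 3 of 1679 mature sequences of the table.

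Depth differed strongly between the organs. A cochlea library held 124400 to 447419 miRNA counts and a SOC library 8309669 to 18053698, so that 1 count stood for 2.24 to 8.04 CPM, the unit of counts scaled to a common library total, in the cochlea and for 0.0554 to 0.120 CPM in the SOC. No 2 libraries of a group agreed within sampling noise. By the share of their counts on miR-99b-5p and miR-191-5p, the SOC libraries were placed in 3 sets that no label names, called A (E16 replicates 2 and 3, P0 replicates 2 and 3), B (E16 replicates 1 and 4, P0 replicate 1, P16 replicate 1) and C (P0 replicate 4, P16 replicates 2 and 3). Set A had no P16 library and set C no E16 library, and whether the sets are technical was not tested. Changes within a set are given beside the changes over all libraries. Neural marker miRNAs summed to between 41015 and 119625 CPM in SOC libraries, and the hair cell miRNAs of the miR-183 cluster to between 16684 and 55845 CPM in cochlea libraries. The same hair cell list summed to between 85032 and 164653 CPM in SOC libraries at E16. Its sums were not compared between the organs, and the source of this E16 sum was not tested.

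In the SOC, 2 of the muscle miRNAs fell steeply between E16 and birth. miR-206-3p fell from 171 ± 64.5 CPM (SD, n = 4) at E16 to 4.99 ± 2.00 CPM (n = 4) at P0, and miR-208b-3p fell from 28.8 ± 12.3 to 1.95 ± 1.35 CPM. miR-1a-3p and miR-499-5p had lower means at P0 than at E16 without passing the test. miR-133a-3p was at the floor at every age. Levels here and below are CPM after TMM normalization, a scaling that corrects each library for differences in composition.

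The level of mmu-miR-206-3p was 250, 150, 96.7 and 187 CPM in E16 replicates 1 to 4. It measured 3.48, 3.61, 5.09 and 7.79 CPM in P0 replicates 1 to 4 and 6.58, 4.03 and 2.97 CPM in P16 replicates 1 to 3. All 4 E16 libraries stood above all 7 later libraries. In counts, the E16 libraries held 968 to 4270 reads of miR-206-3p and the later libraries 31 to 77. The change was −5.10 on the log2 scale from E16 to P0 (SE 0.499, edgeR FDR = 0.000152) and −5.24 from E16 to P16 (SE 0.572, edgeR FDR = 0.000121). Among 694 miRNAs tested in the SOC, this was the 4th strongest decrease at P0. Within set A the mean at P0 was 28.4 times lower than at E16, and within set B 62.8 times lower. The mean of miR-206-3p ranked 138th of all miRNAs at E16 and 432nd at P0.

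The level of mmu-miR-208b-3p, from the slow myosin gene, was 47.1, 23.7, 23.1 and 21.3 CPM in the E16 replicates. It measured 3.16, 3.05, 1.02 and 0.581 CPM in the P0 replicates and 2.45, 0.212 and 0.766 CPM in the P16 replicates. Again no later library reached an E16 library, and the counts were 231 to 804 at E16, 5 to 70 at P0 and 2 to 26 at P16. Its log2 change was −3.86 from E16 to P0 (SE 0.727, edgeR FDR = 0.00836) and −4.64 from E16 to P16 (SE 0.864, edgeR FDR = 0.00151). Within set A the mean was 11.5 times lower at P0 than at E16, and within set B 10.8 times lower.

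The level of mmu-miR-1a-3p was 41.8, 29.7, 16.6 and 36.5 CPM in the E16 replicates. It measured 19.1, 8.05, 10.1 and 2.21 CPM in the P0 replicates and 17.6, 4.88 and 7.18 CPM in the P16 replicates. The groups overlapped, since replicate 1 at P0 and replicate 1 at P16 lay above the lowest E16 library. The log2 fold change was −1.65 from E16 to P0 (SE 0.612, edgeR FDR = 0.130) and −1.66 from E16 to P16 (SE 0.679, edgeR FDR = 0.0670), and neither passed. From E16 to P0 an alternative fit gave an FDR under 0.05, but the ages overlapped there, so miR-1a-3p was not called. Without P16 replicate 1, the single P16 library of set B, the P16 change was −2.25 and passed (edgeR FDR = 0.0277), while with the library set in the fit it was −0.72 (edgeR FDR = 0.180). Within set B alone, the P16 library was 2.23 times lower than the E16 mean.

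The level of mmu-miR-499-5p, from the intron of Myh7b, was 7.21, 6.25, 3.20 and 2.78 CPM in the E16 replicates. It measured 1.36, 0.555, 2.04 and 0.465 CPM in the P0 replicates, and then 6.77, 1.59 and 2.58 CPM in the P16 replicates. The P0 libraries lay below all E16 libraries, while the P16 libraries overlapped both other ages. The log2 fold change from E16 to P0 was −2.11 (SE 0.626) and missed the threshold (edgeR FDR = 0.0609). With the replicate number as a block, it was −2.24 and passed (edgeR FDR = 0.0489). It also passed with DESeq2 (FDR = 0.00930), with a covariate for the library set (edgeR FDR = 0.00940) and without P16 replicate 1 (edgeR FDR = 0.0429). From E16 to P16 it was −0.41 (SE 0.647, edgeR FDR = 0.623), and +0.40 with that covariate.

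Of the 4 muscle miRNAs tested in the SOC, 2 were called lower at P0 than at E16, beside 4.18% of all tested miRNAs called lower, and 2 were called lower at P16 than at E16, beside 20% of all. To be called, a miRNA had to have an FDR under 0.05, differ more than 1.5-fold and show separate replicate levels at the ages compared. Separate levels alone were seen in 16% of all tested miRNAs at P0 and in 52.2% at P16. The median log2 change of the 4 was −2.98 at P0, where it was 0.17 over all tested miRNAs, and −3.15 at P16, where it was 0.08 over all. Both comparisons use the same E16 libraries. In bulk tissue, fewer cells that make a miRNA and less of it per cell cannot be told apart. Between E16 and the later ages, age also cannot be told apart from the change from frozen heads to frozen brains. At P16 it cannot be told apart from the smaller pools and the way of killing either.

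**Figure D1:**
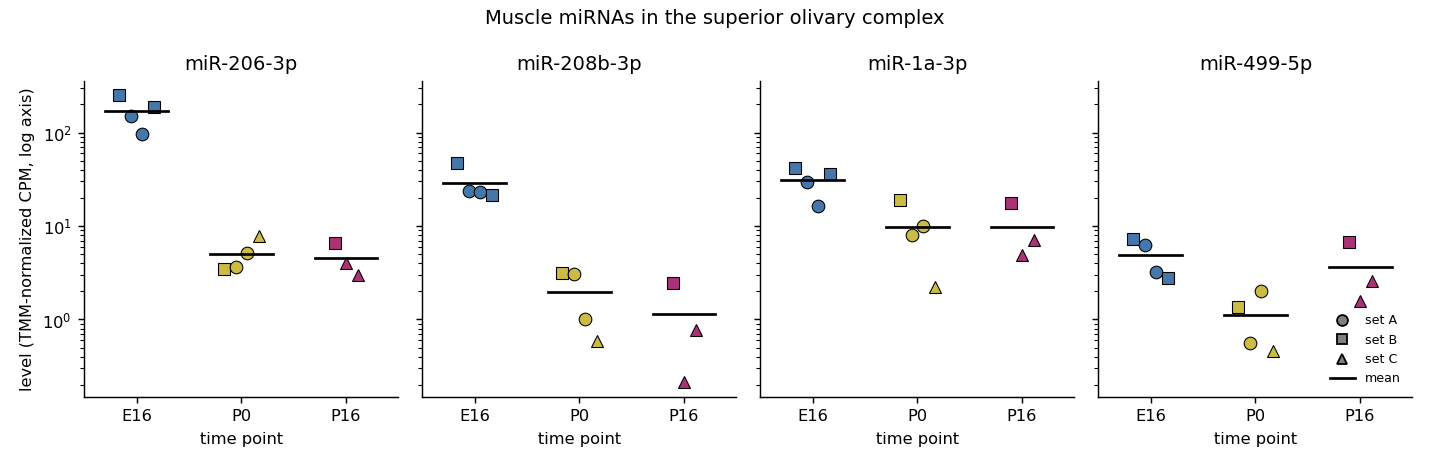
Levels of the 4 muscle miRNAs tested in the SOC, as TMM-normalized CPM on a log axis, by time point. Each symbol is a library (circles set A, squares set B, triangles set C) and each bar a group mean; miR-206-3p fell from 171 CPM at E16 to 4.99 CPM at P0, and miR-208b-3p from 28.8 to 1.95 CPM, with no overlap of the ages.

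From P0 to P16, 0 of the 4 muscle miRNAs were called in the SOC by edgeR, beside 16.1% of all tested miRNAs called in either direction, and 1 of the 4 had an unadjusted p under 0.05, beside 251 of all 694. That one was miR-499-5p, with a log2 fold change of 1.69 (SE 0.657, edgeR FDR = 0.0875). DESeq2 also called 0 of the 4. In an alternative fit miR-499-5p had an FDR under 0.05, where the overlap of its levels kept it from a call. Its P16 library of set B was above its P0 library of the same set by 2.32 on the log2 scale, and the mean of its P16 libraries of set C was above the P0 library of that set by 2.17. The log2 change was −0.14 for miR-206-3p (SE 0.464), 0.00 for miR-1a-3p (SE 0.648) and −0.78 for miR-208b-3p (SE 0.756).

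mmu-miR-133a-3p had 0 counts in all 4 E16 libraries of the SOC, 1, 2, 0 and 0 counts at P0 and 0, 1 and 0 counts at P16. Other arms and relatives of the muscle miRNAs were counted at low levels. miR-133b-5p had 26, 0, 5 and 10 counts in the E16 replicates and 1 count over all 7 later libraries. miR-133a-5p had 4, 7, 6 and 0 counts at E16, 1, 4, 0 and 0 at P0 and 0 at P16. miR-206-5p had 10, 12, 5 and 4 counts at E16, 0.331% of the reads of both arms, and 0 counts at P0 and P16. In contrast, miR-208a-5p had 7, 0, 4 and 4 counts at E16, 11, 5, 14 and 0 at P0 and 76, 0 and 5 at P16, so that most of its counts came from P16 replicate 1. miR-1b-3p had 4 to 16 counts in each of the 11 SOC libraries, at every age. Of the 9 other arms and relatives with a count row, 0 passed the filter on low levels, which asked for more than 1 CPM in 2 or more libraries of an age. miR-208a-3p, the close relative of miR-208b-3p, had at most 1 count in any SOC library.

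Some marker miRNAs of other tissues also fell in the SOC. The epithelial list (the miR-200 family, miR-203 and miR-205) summed to between 926 and 1963 CPM at E16, 56.2 and 195 CPM at P0 and 49.7 and 146 CPM at P16. Of its 7 miRNAs 4 were tested, and 3 were called lower at both later ages. Of all miRNAs tested in the SOC, 4.18% were called lower at P0 and 20% at P16. Of the 7 cartilage and mesenchyme miRNAs 5 were called lower at both later ages. Among them were miR-140-5p, known from cartilage, and miR-199a-5p, known from mesenchyme. In contrast, miR-143-3p (log2 change −0.21 at P0 and 0.18 at P16) and miR-145a-5p (−0.41 and −0.36) were not called. The list's sum overlapped between the ages (16710 to 25712 CPM at E16, 13891 to 19351 at P0 and 18744 to 25480 at P16). Most of that sum was miR-143-3p (15041 to 24151 CPM at E16, 13608 to 19120 at P0 and 18615 to 25315 at P16), so it says little about the others. The 3 hair cell miRNAs summed to between 85032 and 164653 CPM at E16, 4392 and 28710 at P0 and 521 and 3501 at P16, with 1 called lower at P0 and 3 at P16. Of the 6 neural miRNAs, which summed to between 45880 and 112027 CPM after birth, 0 were called in either direction at P0, and at P16 2 were called higher and 1 lower than at E16. Of all 694 tested, 46 were called in either direction at P0 and 286 at P16. Blood miRNAs summed to between 35.3 and 203 CPM over all SOC libraries, with 0 of 4 called at P0 and 1 in each direction at P16. The part of other tissues in the decreases was not tested, nor was that of cutting the E16 tissue from whole frozen heads.

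In the cochlea, miR-1a-3p rose strongly between birth and P16. Its level, listed as mmu-miR-1a-3p, was 438 and 472 CPM in the E16 replicates, 294, 244, 154 and 166 CPM in the P0 replicates and 4025, 1066, 4195 and 2141 CPM in the P16 replicates. Every P16 library stood above every earlier library, as was the case in either direction for 46.2% of all tested miRNAs against E16 and for 16.3% against P0. The P16 libraries spread from 1066 to 4195 CPM. The log2 fold change was 3.73 from P0 to P16 (SE 0.379, edgeR FDR = 2.70e-20) and 2.65 from E16 to P16 (SE 0.470, edgeR FDR = 2.72e-07). At P16 the mean of 2857 ± 1514 CPM (SD, n = 4) ranked 39th of all miRNAs. These levels rest on 137 to 789 counts at P16 and on 24 to 55 counts at P0.

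The decrease of miR-1a-3p in the cochlea from 455 ± 24.0 CPM (n = 2) at E16 to 214 ± 66.3 CPM (n = 4) at P0 was small and passed narrowly, with a log2 fold change of −1.08 (SE 0.411, edgeR FDR = 0.0370). The call was lost without E16 replicate 1 (FDR = 0.157), E16 replicate 2 (FDR = 0.150), P0 replicate 3 (FDR = 0.108) or P0 replicate 4 (FDR = 0.112). It was also lost with DESeq2 (FDR = 0.0805), with a filter of at least 10 counts in every library of an age (FDR = 0.241) and in a fit of all 21 libraries together (FDR = 0.288). At P0, 16.6% of all miRNAs tested in the cochlea were called lower.

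miR-206-3p was counted in all 10 cochlea libraries without a change that passed. It measured 35.4 and 76.4 CPM at E16, 53.5, 234, 64.2 and 161 CPM at P0 and 25.5, 31.1, 99.6 and 52.0 CPM at P16, so the ages overlapped. The counts behind these levels were 13 and 44 at E16, 10 to 48 at P0 and 4 to 15 at P16. Its log2 change was 1.18 from E16 to P0 (SE 0.628, edgeR FDR = 0.147), −0.13 from E16 to P16 (SE 0.639, edgeR FDR = 0.907) and −1.31 from P0 to P16 (SE 0.544, edgeR FDR = 0.0910). Without P16 replicate 3 the last change was −1.84 and passed (edgeR FDR = 0.0324).

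The other muscle miRNAs had 0 to 2 counts in each cochlea library. miR-208b-3p and miR-133a-3p had 0 counts in all 10 libraries, and miR-499-5p had 2 counts in P16 replicate 4 and 0 in the others. miR-133a-3p also had at most 2 counts in any of the far deeper SOC libraries. Why its counts were so low in both organs was not tested. A count of 0 over 2154921 counts in the 10 libraries allows up to 3 counts, or 1.39 CPM. Over the libraries of a single age that limit is 3.92 to 4.50 CPM, and in a single library 6.71 to 24.1 CPM. Of the 2 muscle miRNAs tested in the cochlea, 1 was called higher at P16 than at E16, beside 10.9% of all tested miRNAs, and 1 was called higher at P16 than at P0, beside 3.91%; both calls were miR-1a-3p.

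The marker lists were also read in the cochlea beside the rise of miR-1a-3p. From P0 to P16, 0 of 3 hair cell miRNAs, 2 of 6 neural miRNAs, 0 of 7 epithelial miRNAs, 2 of 7 cartilage and mesenchyme miRNAs and 1 of 3 tested blood miRNAs were called higher, and 1 epithelial and 1 cartilage or mesenchyme miRNA were called lower. Of all miRNAs tested in the cochlea, 3.91% were called higher, and 94 of 896 were called in either direction. The blood list summed to between 193 and 273 CPM at P0 and 364 and 760 CPM at P16, and was at 1525 to 1707 CPM at E16. The neural list summed to between 706 and 1294 CPM at P0 and 1159 and 1746 CPM at P16. The cartilage and mesenchyme list summed to between 69424 and 97838 CPM at P0 and 42518 and 75240 CPM at P16, the epithelial list to between 5657 and 7803 CPM and then 2498 and 7050 CPM, and the hair cell list to between 33733 and 37995 CPM and then 16684 and 38389 CPM. The part of these tissues in the rise was not tested.

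**Figure D2:**
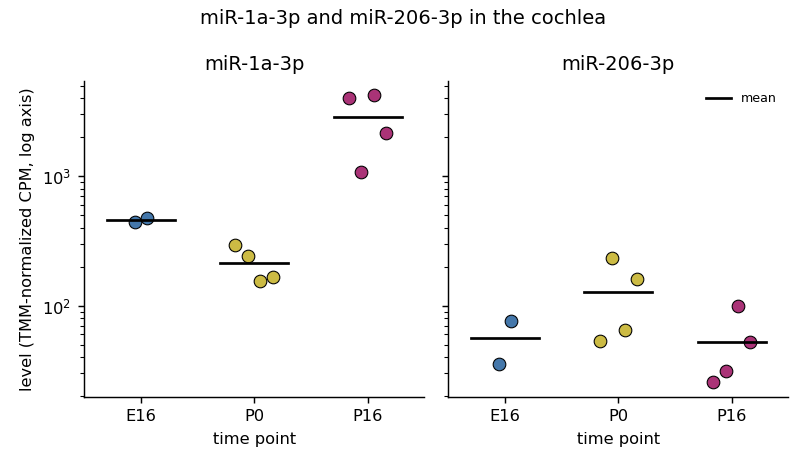
Levels of miR-1a-3p and miR-206-3p in the cochlea, as TMM-normalized CPM on a log axis, by time point. Each circle is a library and each bar a group mean; the P16 libraries of miR-1a-3p lie between 1066 and 4195 CPM, above all earlier libraries, while the ages of miR-206-3p overlap.

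The change over time was then compared between the organs in 1 model with an organ by time interaction, for the 545 miRNAs tested in both. From E16 to P0 the change of miR-206-3p was lower in the SOC than in the cochlea by a log2 difference of −6.49 (SE 0.959, edgeR FDR = 0.000142), whereas the median difference of all 545 was 0.52. From E16 to P16 the difference was −5.32 for miR-206-3p (SE 0.966, edgeR FDR = 0.000808) and −4.52 for miR-1a-3p (SE 1.02, edgeR FDR = 0.00427), with a median of 0.38 over all. At P0 the difference of miR-1a-3p was −0.65 (SE 0.901, edgeR FDR = 0.640) and did not pass. Of all 545, 2.94% passed with a lower change in the SOC at P0 and 5.87% at P16. From P0 to P16, a comparison added after the data were seen, the difference of miR-1a-3p was −3.86 (SE 0.876, edgeR FDR = 0.0149), where 3.85% of all passed with a lower change in the SOC, and that of miR-206-3p was 1.17 (SE 0.790, edgeR FDR = 0.371).

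**Figure D3:**
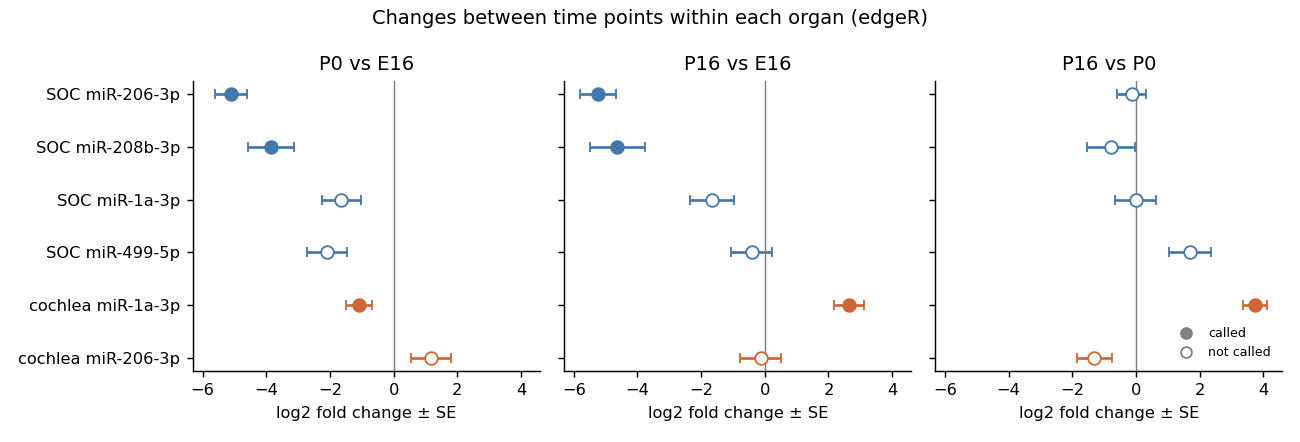
Log2 fold changes with their standard errors for the muscle miRNAs tested in each organ (blue SOC, orange cochlea), in 1 panel for each pair of ages. Filled circles were called and open circles were not; miR-206-3p in the SOC lies at −5.10 and −5.24 in the first 2 panels, and miR-1a-3p in the cochlea at 2.65 and 3.73 in the last 2.

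The balance of miR-1a-3p and miR-206-3p, which share a seed, was read from the counts of each library, because a ratio within a library does not depend on the scaling between libraries. In the SOC at E16, miR-206-3p had 5.06 to 5.98 times the counts of miR-1a-3p in all 4 libraries. At P0 the ratio of miR-1a-3p to miR-206-3p was 5.49, 2.23, 1.98 and 0.284 in replicates 1 to 4, and at P16 it was 2.67, 1.21 and 2.42 in replicates 1 to 3. Only P0 replicate 4, of set C, kept more miR-206-3p than miR-1a-3p after E16. The mean log2 ratio was higher at P0 than at E16 by 3.15 (SE 0.894, exact two-sided permutation p = 0.0286) and at P16 by 3.44 (SE 0.363, exact permutation p = 0.0571), which is the smallest p that 4 against 3 libraries allow with this test. After Benjamini-Hochberg adjustment over 6 such tests both p-values were 0.0686. With these group sizes no outcome could have brought an adjusted p under 0.05, so these tests decide nothing. The ratios at E16 did not overlap those of either later age. From P0 to P16 the mean log2 ratio differed by 0.28 (SE 0.961, exact permutation p = 0.857).

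In the cochlea, the ratio of miR-1a-3p to miR-206-3p was 6.18 to 12.4 at E16, 1.03 to 5.50 at P0 and 34.3 to 158 at P16. At P0 the counts of miR-1a-3p and miR-206-3p were nearly equal in replicate 2 (50 and 48) and in replicate 4 (30 and 29). At P16 miR-1a-3p made up 97.0% or more of the muscle miRNA counts in every library. No test of ratios was run in the cochlea.

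The ratio of the myosin-gene miRNAs turned over in the SOC as well. The counts of miR-208b-3p were 3.79 to 7.66 times those of miR-499-5p at E16. The ratio was 0.5 to 5.5 in P0 libraries and 0.133 to 0.361 in P16 libraries. Every P16 library thus held more miR-499-5p and every E16 library more miR-208b-3p. The mean of P0 lay between them, while P0 replicate 2, at 5.5, lay within the range of E16. The mean log2 ratio was lower at P16 than at E16 by a difference of −4.52 (SE 0.427) and than at P0 by a difference of −2.65 (SE 0.793), and at P0 it was lower than at E16 by a difference of −1.87 (SE 0.743). Each of these 3 tests gave an exact permutation p of 0.0571 and an adjusted p of 0.0686, and the first 2 had no overlap of the ages. They too could not have passed with these group sizes. miR-208b-3p had only 26, 2 and 8 counts in the P16 replicates, which limits these ratios.

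**Figure D4:**
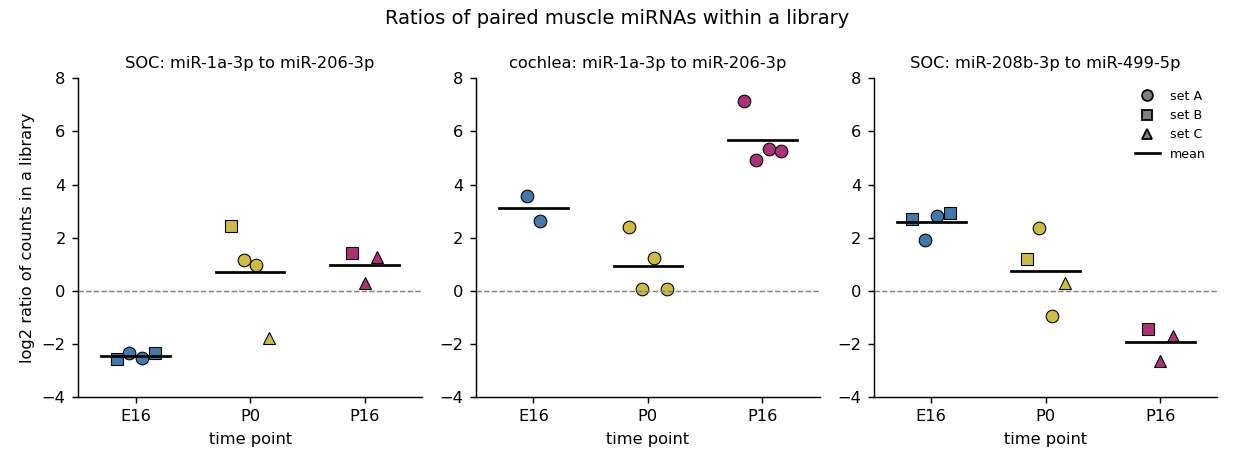
Log2 ratio of the counts of paired muscle miRNAs in each library (circles set A or cochlea, squares set B, triangles set C; bars are group means; the dashed line is a ratio of 1). In the SOC the mean log2 ratio of miR-1a-3p to miR-206-3p moved from −2.45 at E16 to 0.98 at P16, and that of miR-208b-3p to miR-499-5p from 2.59 to −1.93.

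The pattern of the muscle miRNAs was compared with that of all others with a mean of at least 10 CPM in the organ. Over the 11 SOC libraries, the mean log2 level of the 4 tested muscle miRNAs was most like that of miR-503-3p (Pearson r = 0.960), miR-205-5p (r = 0.937), miR-351-5p (r = 0.927), miR-140-5p (r = 0.909) and miR-203-3p (r = 0.890), among 370 candidates. All of them had their highest mean at E16, miR-205-5p, an epithelial miRNA, with 695, 9.08 and 1.35 CPM at E16, P0 and P16. Over the 10 cochlea libraries, the mean of miR-1a-3p and miR-206-3p, which had r = −0.449 with each other, was most like miR-138-5p (r = 0.864), let-7f-5p (r = 0.843), miR-34a-5p (r = 0.835), miR-195a-5p (r = 0.835) and let-7g-5p (r = 0.826), among 519 candidates. All of these had their highest mean at P16, miR-34a-5p with 185, 97.9 and 902 CPM. These correlations are descriptions: the libraries share an age and, in the SOC, a library set.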

How the data were processed

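miRNA-seq of 10 cochlea and 11 SOC libraries was analysed. The authors deposited 1 table of raw counts per mature miRNA and library, without normalization. The submitters' processing notes name Bowtie2 2.2.5, mm10 and DESeq2, while the methods name Bowtie and MirGeneDB; the names in the table are those of miRBase. Every count column was matched to its label, with 0 left over.

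The names of the muscle miRNAs, the other arms of their hairpins and the marker lists were chosen with earlier results of these data known. Named beside them are, per organ, the 5 miRNAs with the most similar pattern (log2 CPM, prior count 2). miRNAs with more than 1 CPM in 2 or more libraries of an age were tested in each organ (694 in the SOC, 896 in the cochlea) with edgeR 4.0.16 (TMM, quasi-likelihood F test, R 4.3.3) and Benjamini-Hochberg adjusted over all of them; DESeq2 1.42.0 was an alternative. Standard errors were computed from the fold change and its F statistic. Ratios within a library had 0.5 counts added and were compared by exact permutation with scipy 1.17.1; the fold ratios printed are of raw counts. An adjusted p under 0.05 was required there, as for the fits. With these group sizes no ratio test could reach it. SOC sets were defined by over 10% of counts on miR-99b-5p (A) and under 1% on miR-191-5p (C), with the rest in B. Intervals and limits cover counting error only, since PCR copies are counted as reads. The fit was tested on simulated data. All results are from fits without a replicate block. All 4 same-numbered pairs of SOC P0 and E16 libraries deviated together (r = 0.251 to 0.490), so the fit with the block is given beside a result whose call it changes; 2 pairs with different numbers, all of set A, correlated as well (r = 0.409 and 0.255). Replicates are biological repeats according to the methods.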

Additional observations from a re-analysis of the deposited data

Results flagged for a closer look

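In SOC E16 replicate 1 the level of miR-208b-3p was 47.1 CPM, far above the other 3 libraries of the age. Its gap to the next library was 0.907 of the whole range, above the 95% critical value of Dixon's test; of 12 groups tested this way 1 stood out, and chance gives about 1 in 20. Without this library miR-208b-3p was still called lower at P0 and P16.

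The change over time differed between SOC and cochlea by the interaction test for miR-206-3p at P0 against E16 (log2 difference −6.49) and at P16 against E16 (−5.32), and for miR-1a-3p at P16 against E16 (−4.52) and at P16 against P0 (−3.86). Kit, strain and depth differed with the organ and cannot be told apart from it.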

How the results depend on the processing

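In the SOC, the counts of 2 muscle miRNAs called lower at P0 and at P16 stayed at 2 or 3 under every alternative, leaving out each library included. Block on the replicate number changed the SOC call of miR-499-5p only; in the cochlea, where the numbers did not pair the libraries, the block ended the P0 call of miR-1a-3p (FDR = 0.128). That cochlea count of 1 fell to 0 with DESeq2, with at least 10 counts in every library of an age, with all 21 libraries in 1 fit and with the block, and ranged from 0 to 1 when single libraries were left out. The cochlea count at P16 against P0 ranged from 1 to 2 (2 without P16 replicate 3). Changes near 0 turned direction: miR-499-5p in the SOC at P16 against E16 to 0.40 with the set as covariate; at P16 against P0 miR-1a-3p to 0.17 with all 21 libraries and 0.63 with the set as covariate (−0.64 to 0.54 without single libraries), and miR-206-3p to 0.13 with all 21 libraries (−0.38 to 0.21); cochlea miR-206-3p at P16 against E16 to 0.43 with at least 10 counts (−0.66 to 0.33); and the organ difference of miR-1a-3p at P0 to 0.0635 with library totals. The ratio difference of miR-1a-3p to miR-206-3p at P0 was 4.92 in set B and 2.57 to 3.98 without single libraries, and at P16 against P0 −0.55 to 0.87. The causes were not tested. Scaling by library totals moved the median of all cochlea miRNAs to −0.38 at P0 and −0.58 at P16, and of the organ difference to 1.22 and 1.06. The planned ratios with miR-133a-3p and miR-133b-3p were not run, since the former had at most 2 counts and the latter was not analysed here. A count of 0 allows up to 1.39 CPM over all cochlea libraries and up to 24.1 CPM in a single one.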
